A study of Rattus norvegicus with 20 samples.

Results

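The insulin-like growth factor (IGF) system of skeletal muscle was described here from 24 of the 8799 probe sets on a rat oligonucleotide expression array. A probe set is a group of short DNA probes against one transcript. Its members are the probe sets whose single gene symbol in the array's annotation is Igf1, Igf2, Igf1r, Igf2r or 1 of Igfbp1 to Igfbp6. Of these 10 genes 9 had such a probe set, and Igfbp4 was not analysed here. The series holds 20 arrays of muscle from the rear leg in 4 groups of 5, which were normal rats, diabetic rats, diabetic rats given vanadyl sulfate, and normal rats given vanadyl sulfate. Vanadyl sulfate is a vanadium salt that can imitate part of the action of insulin and inhibits protein tyrosine phosphatases. The sources used here do not give the strain, sex or age of the rats, how diabetes was produced or for how long, or the vanadyl dose and duration. Nor do the labels say that each array is a separate animal. P-values therefore measure the spread between these samples, part of which may be technical.

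IGF1 and IGF2 are small secreted hormones related to insulin. Both act mainly through the IGF1 receptor, a tyrosine kinase of the insulin receptor family that signals through the IRS proteins and Akt, and in muscle this pathway supports growth, regeneration and protein synthesis. The IGF2 receptor carries no kinase and clears IGF2 from the cell surface, and the 6 IGF-binding proteins (IGFBPs) hold the hormones in blood and tissue and control how much reaches the receptors. In the rat most circulating IGF1 and IGFBP1 comes from liver, under the control of growth hormone and insulin, while muscle makes its own IGF1, IGF2 and several IGFBPs.

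Values are MAS5 signals, a linear brightness whose trimmed mean is nearly the same in every array as deposited. A member counted as tested when its signal lay above the 40th percentile of its own array in at least 5 of the 20 arrays, and 17 members from 8 genes did so, of 6027 probe sets in all. Igfbp1 had no tested probe set. Changes are differences of log2(signal + 16) with their standard error (SE), from limma, and a change is called at an adjusted p under 0.05, with the adjustment made over all 6027. Signals listed below follow replicate numbers 1 to 5 of each group. Correlations of log2 signal between arrays ran from 0.68 to 0.97. All 13 myofibre markers on the array, such as Ckm and Acta1, lay above the 40th percentile in every array, as did the 8 fibroblast and connective tissue markers. In 3 arrays, normal 1, normal 3 and diabetic with vanadyl 1, the log2 ratio of the 3′ to the 5′ probe set of Gapdh, a sign of shortened transcripts, was 2.90, 2.91 and 3.94, against at most 1.31 in the other arrays. The same ratio of beta-actin ran from 0.48 to 3.01 over the arrays. It was 3.01, 0.63, 1.68, 0.58 and 0.58 in normal and 2.30, 0.93, 2.52, 1.05 and 1.97 in diabetic muscle. The macrophage and leukocyte list had 14 genes on the array, 11 of them tested, and 6 of those were called higher in diabetic muscle. These were Fcgr2b, Spp1, Lgals3, Lyz2, Ccl2 and Coro1a. The other tested genes were not called, with positive changes for Cd74 (1.69) and Cd8a (0.62). Changes were negative for Ptprc (-0.41), Cd14 (-0.07) and Cd4 (-0.53), so the markers of the list did not move together. The summed signal of the list was 19191 to 88051 in diabetic muscle, highest in diabetic 1 (88051) and diabetic 3 (85401), and 9494 to 17959.5 over the other 3 groups. The adipocyte list had 3 of 5 tested genes higher in diabetic muscle, the endothelium list 1 of 6 and the satellite cell and myogenic list 1 of 8. Over all 3582 tested genes, 74 were called in diabetic against normal muscle. No tested gene of the myofibre, liver, fibroblast, smooth muscle, nerve or blood lists was called in that comparison. In whole muscle, fewer cells of a type and less RNA per cell cannot be told apart.

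Across the system, 1 member was called in 6 comparisons. The probe set L29232_at of Igf1r was higher in diabetic than in normal muscle, and the other 16 tested members were not called. That is 5.88% of the tested members, where 1.83% of all tested probe sets were called (110 of 6027). This probe set met the low-signal filter only through its diabetic arrays and was not called without the filter. No member was called for vanadyl sulfate in diabetic muscle (background 0.498%), for vanadyl sulfate in normal muscle (0.0664%), or in the interaction, which is the difference between those vanadyl effects (0.166%). None was called between treated diabetic and untreated normal muscle or between treated diabetic and treated normal muscle, where the background was 0% in both. At an unadjusted limma p under 0.05 there were 4 of 17 members in diabetic against normal muscle, where 16.7% of all tested probe sets were at that level, and 3 for vanadyl sulfate in diabetic muscle (all probe sets 16.3%). There were 2 for vanadyl sulfate in normal muscle (9.23%) and 2 in the interaction (13.3%). Treated diabetic against treated normal muscle had 1 (17.9%, 1076 probe sets) and treated diabetic against normal muscle 0 (12.8%, 770 probe sets). The median log2 change of the 17 members was -0.22 in diabetic against normal muscle, where that of all tested probe sets was -0.065. For vanadyl sulfate these medians were 0.26 and 0.080 in diabetic muscle, and 0.17 and 0.18 in normal muscle. The comparisons share groups, so a high value in the diabetic arrays enters diabetic against normal and treated against untreated diabetic muscle with opposite signs.

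**Figure D1:**
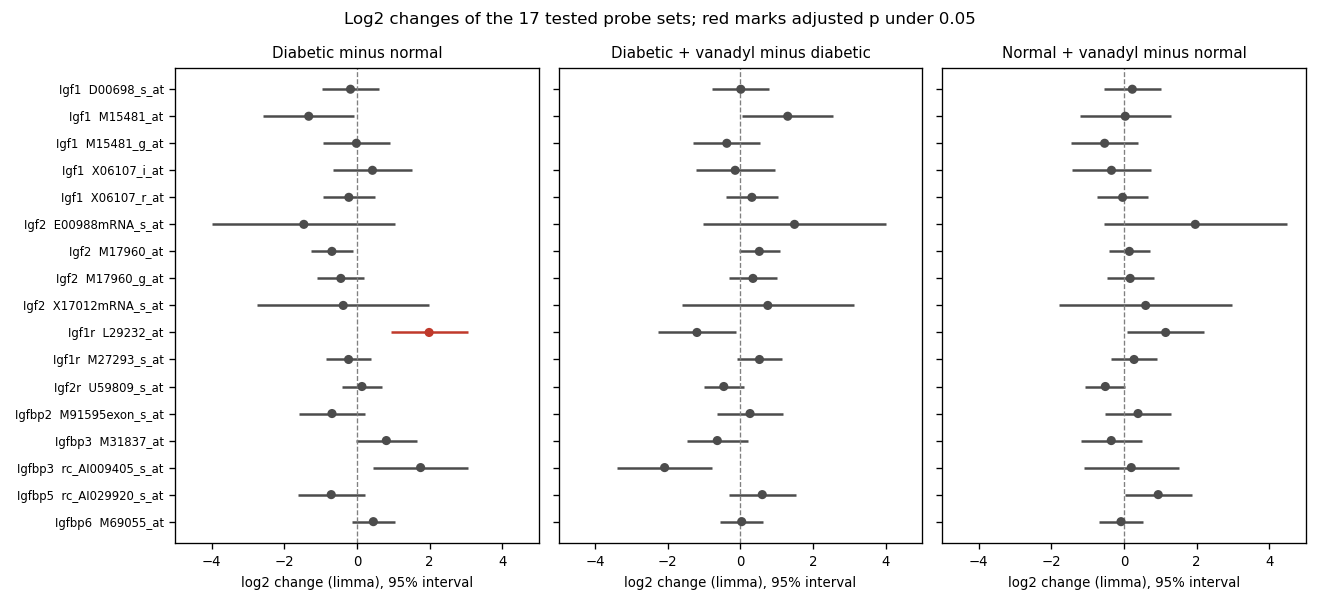
Log2 change of each of the 17 tested probe sets with its 95% interval from limma, in diabetic against normal muscle (left), diabetic muscle with against without vanadyl sulfate (middle) and normal muscle with against without vanadyl sulfate (right). One interval is marked red, Igf1r L29232_at in diabetic muscle at 1.99, and 2 of the Igf2 probe sets have the widest intervals.

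Igf1, the growth-promoting ligand that muscle makes under growth hormone and on loading, had 5 tested probe sets, and none was called in any comparison. The largest differences were in M15481_at. Its signal was 676, 153, 1696, 1927 and 863 in normal muscle. It was 130.0, 349, 319, 289 and 617 in diabetic muscle, where all 5 arrays lay below the normal median of 863. In diabetic muscle with vanadyl sulfate it was 1814, 641, 841, 946 and 299, and in normal muscle with vanadyl sulfate 300.1, 1308, 1280.4, 619 and 1104. The diabetic arrays were thus low as a group, but normal 2 (153) was as low as they were and the ranges overlapped. The log2 change was -1.33 ± 0.60 (SE) in diabetic against normal muscle, with an unadjusted p of 0.0382 and an adjusted p of 0.265 (limma). With the Gapdh and beta-actin ratios as covariates this change was -0.60. With vanadyl sulfate the diabetic arrays differed by 1.30 ± 0.60, with an adjusted p of 0.284 (limma), and the interaction was 1.27 ± 0.85 with an adjusted p of 0.544 (limma).

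The other 4 probe sets of Igf1 did not show that difference. M15481_g_at, from the same transcript record, read 1072, 2309, 2764, 3585 and 2395 in normal and 3589, 1741, 3414, 1867 and 1399 in diabetic muscle. With vanadyl sulfate it read 2034, 3180.0, 1710.3, 1478 and 915 in diabetic and 1619, 1577, 2747, 2646 and 488 in normal muscle. Diabetic 1 and 3 were the highest diabetic arrays here, as they were for the macrophage list, and the change from normal was -0.02 (95% interval -0.94 to 0.91). X06107_r_at read 848, 807, 2739, 1843 and 1750.2 in normal and 994, 1479.5, 1006, 1590.1 and 1181 in diabetic muscle. Under vanadyl sulfate it read 1617, 1640.2, 2418, 1193 and 1092 in diabetic and 1587, 2078, 1669, 767 and 1256 in normal muscle. All 20 of its signals were above the 40th percentile and the 4 groups overlapped, with a diabetic change of -0.22 (95% interval -0.93 to 0.49).

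D00698_s_at and X06107_i_at lay around or under the 40th percentile of the filter, which they passed in 13 and 5 of the 20 arrays. D00698_s_at read 668, 298, 347, 178 and 449 in normal, 326, 582, 325, 204 and 231 in diabetic, 577, 388, 142, 353 and 266 in treated diabetic and 468, 369, 686, 284 and 381 in treated normal muscle. X06107_i_at read 219, 207, 224, 80.8 and 384 in normal, 209.8, 364, 239.7, 214 and 408 in diabetic, 634, 230.4, 518, 52.5 and 204 in treated diabetic and 281, 61.1, 167, 292 and 98.0 in treated normal muscle. Neither separated any pair of groups, and the diabetic changes were -0.18 and 0.43 with adjusted p of 0.854 and 0.718 (limma). Over the 20 arrays the 5 Igf1 probe sets followed each other little, with Pearson r from -0.19 to 0.58. The highest was between M15481_at and X06107_r_at. The Igf1 probe set with the highest mean signal, M15481_g_at, was most like Bgn, a proteoglycan of connective tissue (r = 0.71), Tspo (0.71) and Mboat7 (0.71) among the 3582 genes tested.

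**Figure D2:**
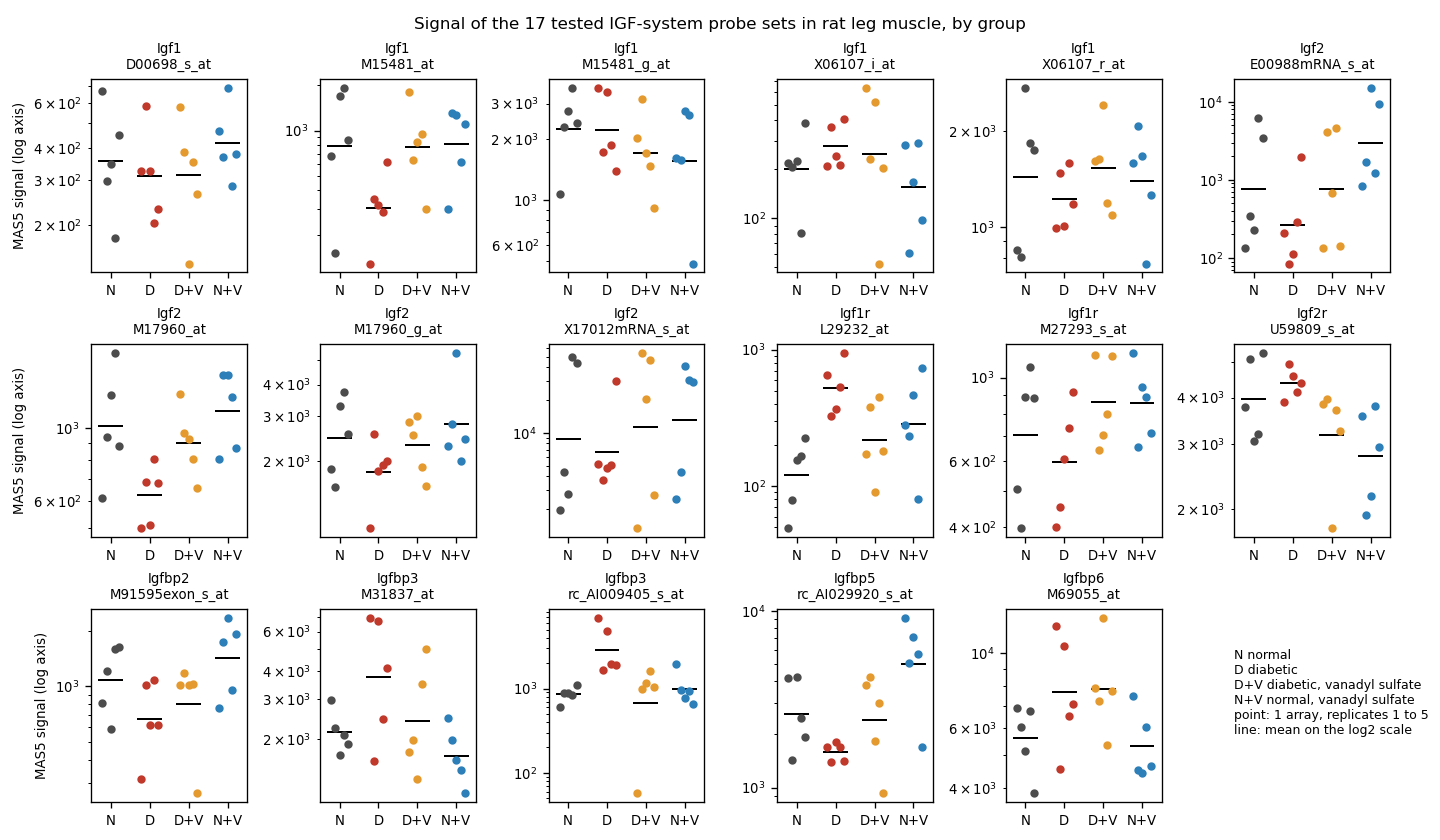
MAS5 signal of the 17 tested probe sets on log axes that differ between panels, with 1 point per array in replicate order and a line at the mean of the log2 values of each group. The diabetic arrays of Igf1r L29232_at and Igfbp3 rc_AI009405_s_at lie above all normal arrays, and the Igf2 probe sets X17012mRNA_s_at and E00988mRNA_s_at spread widely within every group.

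Igf2, a growth factor of fetal tissue and of differentiating muscle cells, had 4 tested probe sets, and none was called in any comparison. Its strongest feature was a swing between arrays inside every group. X17012mRNA_s_at read 1960.1, 4376, 2726, 49694 and 43784 in normal muscle. It read 5181, 3725, 4759.6, 5039 and 29863 in diabetic muscle, 1327, 54494, 20582, 46993 and 2668 in treated diabetic muscle and 2487, 4409, 41013, 30557 and 29577 in treated normal muscle. The arrays thus lay either between 1327 and 5181 or between 20582 and 54494, with nothing in between, and both ranges were met in each of the 4 groups. The highest signal was 41.1 times the lowest. The residual standard deviation of log2 signal within groups was 1.99, higher than that of 99.67% of all tested probe sets.

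E00988mRNA_s_at behaved alike. It read 134, 346, 226, 6197 and 3397 in normal, 209, 84.8, 113, 289 and 1957 in diabetic, 134, 4063, 681, 4562 and 141 in treated diabetic and 834, 1706, 15097, 1212 and 9285 in treated normal muscle. Its highest signal was 178 times its lowest and its residual standard deviation was 2.12, above that of 99.73% of tested probe sets. Over the 20 arrays its r with X17012mRNA_s_at was 0.86, and 0.92 with group means removed. In both probe sets normal 4 and 5, diabetic 5 and treated diabetic 2 and 4 were the highest arrays of their groups. Treated normal 4 and treated diabetic 3 lay in the upper range of X17012mRNA_s_at but read 1212 and 681 in E00988mRNA_s_at, where treated normal 2 (1706) was above treated normal 4. The log2 ratio of the 3′ to the 5′ Gapdh probe sets had an r of -0.63 with X17012mRNA_s_at and -0.59 with E00988mRNA_s_at. All 3 arrays of high ratio lay in the lower range of X17012mRNA_s_at, but so did arrays of low ratio, such as normal 2 (0.025) and treated normal 2 (0.021). The median log2 signal of each array had an r of 0.48 with X17012mRNA_s_at and 0.78 with E00988mRNA_s_at. Liver transcripts, described with Igfbp1 below, were high in 5 arrays, and 4 of these (normal 4 and 5, diabetic 5, treated diabetic 4) lay in the upper range of X17012mRNA_s_at and treated diabetic 5 in the lower. The part of transcript length or of liver RNA in this swing was not tested. Group differences did not stand out beside it, at -0.38 ± 1.14 and -1.46 ± 1.21 in diabetic against normal muscle, with adjusted p of 0.903 and 0.56 (limma). Intervals of -2.75 to 2.00 and -3.98 to 1.05 leave room for large differences in either direction. Without the 5 arrays of high liver signal the X17012mRNA_s_at change turned from -0.38 to 0.69 and that of E00988mRNA_s_at was -0.45.

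**Figure D3:**
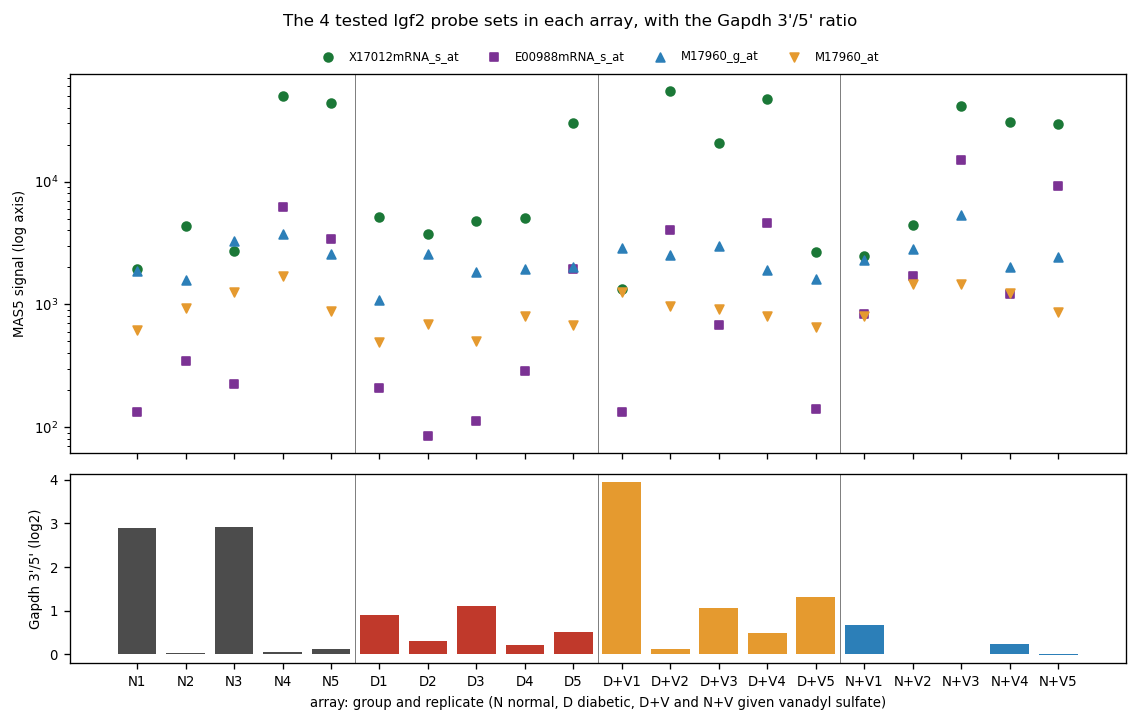
Signal of the 4 tested Igf2 probe sets in each array on a log axis (top) and the log2 ratio of the 3′ to the 5′ Gapdh probe set (bottom), with groups parted by vertical lines. X17012mRNA_s_at and E00988mRNA_s_at swing by 41.1 and 178 times over the arrays, the M17960 probe sets by 3.41 and 4.90 times, and the 3 tall bars are normal 1, normal 3 and treated diabetic 1.

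The M17960 probe sets of Igf2 were steady. M17960_at read 617, 939.6, 1261, 1696 and 885 in normal and 497, 687, 507, 809.7 and 684 in diabetic muscle. With vanadyl sulfate it read 1269, 966, 926, 807 and 661 in diabetic and 806, 1455, 1456, 1246 and 872 in normal muscle. Diabetic arrays were low as a group and overlapped the normal ones only through normal 1 (617), and the change was -0.69 ± 0.27 with an unadjusted p of 0.0207 and an adjusted p of 0.199 (limma). With both 3′ to 5′ ratios as covariates this change was -0.31, and the r of M17960_at with the beta-actin ratio was -0.56. Against untreated diabetic muscle the treated diabetic arrays differed by 0.52 (95% interval -0.05 to 1.09). M17960_g_at read 1867, 1582, 3309, 3753 and 2551 in normal and 1091, 2564, 1836, 1938 and 1999 in diabetic muscle. It read 2859, 2528, 3009.5, 1902 and 1602 in treated diabetic and 2305, 2814, 5342, 2007 and 2453 in treated normal muscle, and its diabetic change was -0.44 (95% interval -1.09 to 0.21). Its r with M17960_at was 0.77, while the r of these 2 with X17012mRNA_s_at was 0.28 and 0.31 and with E00988mRNA_s_at 0.51 and 0.50. X16703_i_at and X16703_r_at of Igf2 were not tested. They ranged from 2.60 to 104 and from 28.3 to 255 and were under the 40th percentile in all 20 arrays.

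Igf1r, the signalling receptor for both ligands, had 2 tested probe sets that gave different accounts. L29232_at read 49.2, 78.7, 157, 166 and 226 in normal muscle, under the 40th percentile of the array in all 5. It read 656, 326, 365, 529 and 948 in diabetic muscle, above that percentile in all 5. In treated diabetic muscle it read 172, 381, 90.3, 449 and 181 and in treated normal muscle 279.9, 232, 463, 80.3 and 727. The lowest diabetic array (326) was above the highest normal array (226), while both treated groups spread across the gap. The mean log2 value was 7.09 ± 0.77 in normal and 9.08 ± 0.61 in diabetic muscle (SD, n = 5 each). The log2 change was 1.99 ± 0.51 (95% interval 0.92 to 3.05), or 3.96-fold, with an adjusted p of 0.0496 (limma). The probe set was above the 40th percentile in 9 of the 20 arrays, the 5 diabetic ones, treated diabetic 2 and 4 and treated normal 3 and 5, so it was tested only because the diabetic arrays count towards the filter. With no filter the adjusted p was 0.0706 (limma) and the change was not called. Ranges that do not overlap in this comparison were seen for 307 of the 6027 tested probe sets and for 2 members.

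That call stood at the threshold. Leaving out any 1 of 14 arrays ended it, with adjusted p from 0.0523 to 0.149 (limma). These were the 5 normal arrays, diabetic 1, 3, 4 and 5, treated diabetic 1 and 2, and treated normal 1, 2 and 3. With a larger pseudocount in place of 16 the log2 change was 1.04. The call was present in 12 of the 34 alternative analyses that gave a value, and the log2 change ran from 1.04 to 2.19 with adjusted p from 0.0309 to 0.323 (limma). Diabetic 1 and 3 had the highest summed signal of the macrophage and leukocyte list. Without them the change was 2.05 with an adjusted p of 0.323 (limma), a setting in which 3 of all 6027 probe sets were called. The summed signal of 6 adipocyte markers was also higher in diabetic (32149 to 52729) than in normal muscle (14987 to 26415), and the part of other cell types in the Igf1r change was not tested. Vanadyl sulfate in diabetic muscle gave -1.20 ± 0.51 with an adjusted p of 0.253 (limma). In normal muscle it gave 1.15 ± 0.51 with an adjusted p of 0.516 (limma). The interaction was -2.35 ± 0.72, with an unadjusted p of 0.00393 and an adjusted p of 0.162 (limma).

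M27293_s_at, the other Igf1r probe set, read 507, 398, 889.6, 1064 and 885 in normal and 401, 455, 606, 737 and 916 in diabetic muscle. It read 1151, 644, 706, 803 and 1141 in treated diabetic and 1164, 654, 944, 889 and 712 in treated normal muscle. It was above the 40th percentile in all 20 arrays, its groups overlapped, and its diabetic change was -0.23 with a 95% interval of -0.85 to 0.39, which does not reach the change of L29232_at. The r between both Igf1r probe sets was 0.03 over the 20 arrays. The genes most like M27293_s_at were Prkce, a protein kinase C isoform (r = 0.82), Cyp2a2 (0.82) and Mip (0.81). Those most like L29232_at, looked up after its values were seen, were Gstm2 (0.80) and Gpx3 (0.78), of glutathione metabolism, and Plat (0.77).

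Igf2r, the IGF2-clearing receptor that also sorts lysosomal enzymes, had 1 probe set, U59809_s_at, and was not called in any comparison. It read 3781, 5105, 3047, 3185 and 5294 in normal and 3887, 4937, 4584, 4152 and 4377 in diabetic muscle. It read 3842, 3963, 1769.9, 3700.1 and 3239.9 in treated diabetic and 3568, 1918, 2163, 3807 and 2944 in treated normal muscle. Diabetic arrays lay inside the normal range, with a change of 0.14 (95% interval -0.41 to 0.68). Under vanadyl sulfate the differences were -0.46 in diabetic and -0.51 in normal muscle, with adjusted p of 0.386 and 0.555 (limma).

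Igfbp3, the main carrier of IGFs in blood and a product of endothelial and connective tissue cells, had 2 tested probe sets, and neither was called. rc_AI009405_s_at read 604, 885, 897, 848 and 1096 in normal and 6963, 1677, 4759.8, 1967 and 1883 in diabetic muscle. It read 57.4, 994, 1155, 1628 and 1057 in treated diabetic and 1973, 961, 779, 934 and 655 in treated normal muscle. Every diabetic array was above every normal and every treated diabetic array, diabetic 1 and 3 being the highest, and treated diabetic 1 was far below all others. The change was 1.75 ± 0.63 in diabetic against normal muscle (3.37-fold, unadjusted p 0.0111, adjusted p 0.152, limma). Vanadyl sulfate in diabetic muscle gave -2.09 ± 0.63 (unadjusted p 0.00332, adjusted p 0.122, limma), and the interaction was -2.29 ± 0.89 with an adjusted p of 0.272 (limma). Ranges that do not overlap were seen for 268 of 6027 probe sets in the vanadyl comparison.

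Treated diabetic 1 entered the vanadyl change and the interaction directly, and the diabetic change only through the spread pooled over all groups. That array has the highest Gapdh 3′ to 5′ ratio (3.94). Without it the diabetic change stayed at 1.75 but had an adjusted p of 0.0208 (limma), so that the probe set was called. The vanadyl change became -1.28 with an adjusted p of 0.192 (limma). Without normal 1, normal 3 and treated diabetic 1, the 3 arrays of high ratio, the diabetic change was 1.62 with an adjusted p of 0.0356 (limma). With both the Gapdh and the beta-actin ratio as covariates it was 0.62 with an adjusted p of 0.701, and without diabetic 1 and 3 it was 1.10 with an adjusted p of 0.782 (limma). The summed signal of the macrophage and leukocyte list was highest in the same 2 diabetic arrays. Among the diabetic arrays the beta-actin ratio was also highest in these (2.30 and 2.52). The part of either in the Igfbp3 values was not tested.

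M31837_at, the other Igfbp3 probe set, read 2987, 2229, 1691, 2091 and 1906 in normal and 6931, 1592, 6714, 2458 and 4119 in diabetic muscle. It read 1746, 1989, 1328, 3497 and 5046 in treated diabetic and 2479, 1978, 1607, 1460.2 and 1149 in treated normal muscle. Diabetic 1 and 3 were again the highest of all, diabetic 2 was below the normal range, and treated diabetic 1, so low in the first probe set, was inside the range of its group. The diabetic change was 0.81 ± 0.40 (adjusted p 0.315, limma) and the vanadyl change in diabetic muscle -0.64 ± 0.40 (adjusted p 0.433, limma). The r between both probe sets was 0.59, and 0.49 with group means removed. With the beta-actin ratio M31837_at had an r of 0.59, and with both ratios as covariates its diabetic change was 0.15.

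Igfbp2, a binding protein that prefers IGF2, lies next to Igfbp5 in the RefSeq annotation of GRCr8, as Igfbp1 lies next to Igfbp3. Its tested probe set M91595exon_s_at read 806, 1209.7, 584, 1585 and 1635 in normal and 315, 1015, 612, 1076 and 614 in diabetic muscle. It read 1018, 1172, 1013, 1028 and 263 in treated diabetic and 764, 1739.5, 2357, 954 and 1923 in treated normal muscle. The groups overlapped in every comparison, and the diabetic change was -0.69 (95% interval -1.60 to 0.23, adjusted p 0.442, limma). The r of M91595exon_s_at with the beta-actin ratio was -0.70. A09811cds_s_at, not tested, ranged from 34.8 to 163 and was under the 40th percentile in all 20 arrays. J04486_at, also not tested, was above it in 1 array, diabetic 5 (591), and was 27.6 to 266 in the others.

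Igfbp5, the binding protein most abundant in developing and regenerating muscle, had 1 tested probe set, rc_AI029920_s_at. It read 4159, 1431, 4247, 2469.5 and 1945 in normal and 1707, 1398, 1804, 1687 and 1413 in diabetic muscle. It read 3806, 4233, 1834, 3029 and 929 in treated diabetic and 9205, 5062, 7109.7, 5716 and 1708 in treated normal muscle. The 5 diabetic arrays were tightly grouped between 1398 and 1804, around the lower end of the normal range, and 4 of the 5 treated normal arrays were above every normal array. The diabetic change was -0.71 ± 0.44 (adjusted p 0.431, limma). Vanadyl sulfate gave 0.60 ± 0.44 in diabetic muscle (adjusted p 0.511, limma) and 0.94 ± 0.44 in normal muscle (unadjusted p 0.045, adjusted p 0.531, limma). Treated diabetic against treated normal muscle gave -1.05 ± 0.44 (unadjusted p 0.0272, adjusted p 0.225, limma). The untested probe sets M62781_at and rc_AI070577_at ranged from 67.1 to 1387 and from 14.5 to 474, above the 40th percentile in 3 and 2 arrays. In rc_AI070577_at the 5 diabetic arrays lay between 14.5 and 24.0 and the 5 treated diabetic ones between 31.2 and 174, all of them under that percentile. The median percentile of this probe set over the 20 arrays was 12.31. Ranges that do not overlap were counted among tested probe sets only. This gap thus has no background share beside it and is not read as a vanadyl difference.

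Igfbp6, which binds IGF2 with the highest preference in the family, had 1 probe set, M69055_at. It read 6875, 6059, 5141, 6732 and 3855 in normal and 12018, 4545, 10516, 6531 and 7097 in diabetic muscle. It read 7877, 7211, 12771, 5353 and 7724 in treated diabetic and 7454, 4515, 4438, 6057 and 4642 in treated normal muscle. Diabetic 1 and 3 and treated diabetic 3 were the highest arrays, and every pair of groups overlapped. The diabetic change was 0.45 (95% interval -0.15 to 1.05, adjusted p 0.439, limma), and 0.08 without diabetic 1 and 3. The r of M69055_at with the beta-actin ratio was 0.58. Treated diabetic against treated normal muscle gave 0.57 ± 0.29 with an adjusted p of 0.305 (limma).

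Igfbp1, a liver product that insulin represses, was near the floor of the array and was not tested. Its probe set M58634_at read 92.2, 27.8, 62.8, 105 and 105 in normal and 126, 69.9, 70.0, 33.3 and 1056 in diabetic muscle. It read 469, 73.5, 109, 133 and 234 in treated diabetic and 98.6, 134, 132, 94.0 and 47.8 in treated normal muscle. It was above the 40th percentile in 2 arrays, diabetic 5 (1056) and treated diabetic 1 (469), and was 27.8 to 234 in the other 18. Liver transcripts were unevenly present. The summed signal of 14 liver genes was 79392 in diabetic 5, where all 14 were above the 40th percentile and Alb, the albumin gene, read 18697. It was 44233 in treated diabetic 5, 17846 in treated diabetic 4, 16526 in normal 4 and 14913 in normal 5, and 2482 to 6319 in the other 15 arrays. Diabetic 5 was thus highest in Igfbp1, in Igfbp2 J04486_at and in the liver list, and treated diabetic 1 was high in Igfbp1 at a liver sum of 5762. Whether liver RNA gave the Igfbp1 signal was not tested. Without the 5 arrays of high liver sum the Igf1r change was 2.19 with an adjusted p of 0.108 (limma).

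**Figure D4:**
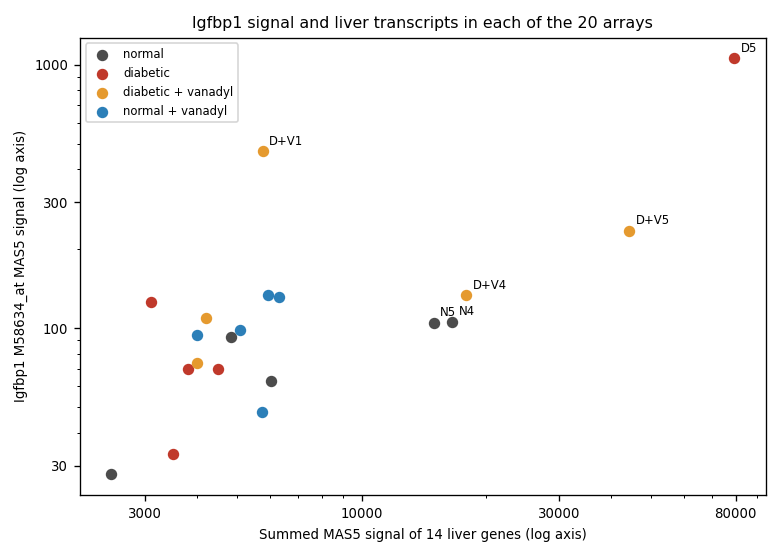
Signal of Igfbp1 M58634_at against the summed signal of 14 liver genes in each of the 20 arrays, both on log axes, coloured by group, with labels on arrays past 10000 in the liver sum or past 300 in Igfbp1. Diabetic 5 lies at 79392 and 1056, and treated diabetic 1 is high in Igfbp1 without a high liver sum.

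The genes around the IGF system were read from a list of 44 other genes of the growth hormone and IGF axis, 35 of them on the array and 32 tested. In diabetic muscle 2 were called, both lower, 0 were called higher and 30 were not called, and in the other 5 comparisons 0 of 32 were called. The median change of the list was -0.20, where that of all 3582 tested genes was -0.042 and 74 of those genes were called. Grb14, an adaptor that blocks insulin and IGF1 receptor signalling, read 3344, 2683, 2115, 3845 and 2322 in normal and 1028, 1125, 1025, 1324 and 1658 in diabetic muscle. The ranges do not overlap, and the signal fell by 1.19 on the log2 scale (SE 0.25, adjusted p 0.0159, limma). Treated diabetic arrays read 2423, 2313, 1957, 1118 and 1732, spread from the diabetic into the normal range, with a vanadyl change of 0.60 and an adjusted p of 0.245 (limma).

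Irs1, the docking protein that carries the signal of both receptors to PI3 kinase, read 1171, 2666, 1161, 993 and 831 in normal and 479, 452, 436, 692 and 345 in diabetic muscle. It fell by 1.38 on the log2 scale (SE 0.35, adjusted p 0.0483, limma), without overlap between these 2 groups. Treated diabetic arrays ran from 415.5 to 1290.6 and treated normal arrays from 488.1 to 1050.3, so both treated groups overlapped the diabetic range. The Irs1 call was present in 16 of 35 alternative analyses and the Grb14 call in 30 of 35, and without diabetic 1 and 3 their adjusted p were 0.387 and 0.254 (limma), with changes of -1.36 and -1.04. With both 3′ to 5′ ratios as covariates neither Grb14 (adjusted p 0.0965) nor Irs1 (adjusted p 0.156, limma) was called. Irs1 was also not called under quantile normalization (adjusted p 0.0708) or median scaling (adjusted p 0.0618, limma). The Grb14 call also ended without normal 4 (adjusted p 0.0501), diabetic 1 (0.0611) or diabetic 3 (0.0595, limma). That of Irs1 ended without any 1 of 12 arrays, which were normal 2 to 5, diabetic 1, 2, 3 and 5, and treated normal 1 to 4, with adjusted p from 0.0565 to 0.135 (limma). Others on the list were not called. Socs2 and Cish, targets of growth hormone signalling through STAT5, gave -2.13 ± 0.86 and -1.76 ± 0.89 in diabetic muscle, with adjusted p of 0.205 and 0.327 (limma). Ghr, the growth hormone receptor, gave 0.06, Insr, the insulin receptor, 0.06, and Igfals, a partner in the circulating IGF complex, -0.50, with adjusted p of 0.945, 0.96 and 0.428 (limma). Eif4ebp1, the translation inhibitor downstream of Akt and mTOR, gave 1.23 ± 0.35 with an adjusted p of 0.0804 (limma). Mstn, which encodes the growth inhibitor myostatin, gave -1.53 ± 0.53 with an adjusted p of 0.138 (limma).

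**Figure D5:**
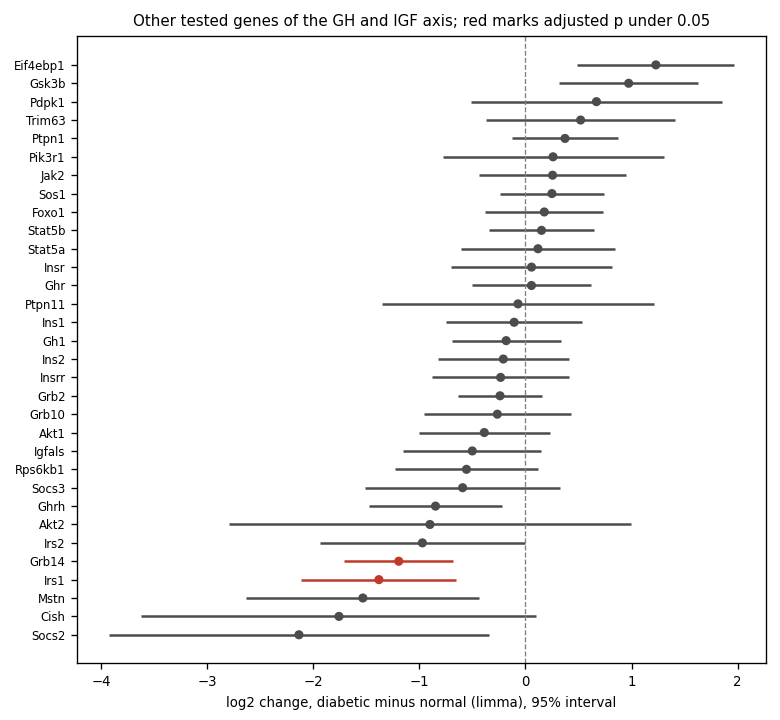
Log2 change in diabetic against normal muscle with its 95% interval from limma for the 32 tested genes of the growth hormone and IGF axis list, ordered by change. Grb14 at -1.19 and Irs1 at -1.38 are red, for an adjusted p under 0.05, and Socs2 and Cish have larger changes with wide intervals.

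A second list held 20 proteases that cleave IGFBPs and partners that bind them, of which 12 were on the array and 10 tested. Plat, tissue plasminogen activator, was the 1 gene called, in diabetic against normal muscle, where 74 of all 3582 tested genes were called. It read 536, 1042, 731, 481 and 519 in normal and 1915, 883, 1729.9, 1681 and 2574 in diabetic muscle, where diabetic 2 (883) lay inside the normal range. It rose by 1.37 on the log2 scale (SE 0.33, adjusted p 0.0433, limma). With both 3′ to 5′ ratios as covariates the change was 1.09 with an adjusted p of 0.217 (limma). The call was present in 19 of 35 alternative analyses. Leaving out any 1 of 10 arrays ended it (normal 3 to 5, diabetic 1, 3, 4 and 5, treated normal 1 to 3), with adjusted p from 0.0511 to 0.129 (limma), and without the 5 arrays of high liver sum the change was 0.99 with an adjusted p of 0.214 (limma). Vanadyl sulfate in diabetic muscle gave -1.24 ± 0.33 with an adjusted p of 0.103 (limma). A further list held 31 other growth factor genes of muscle, 28 on the array and 24 tested, and 0 were called in any comparison. The 2 with the smallest p in diabetic muscle were Bdnf, a neurotrophin, at -0.83 (adjusted p 0.144, limma) and Vegfa, the main angiogenic factor of muscle, at -1.39 (adjusted p 0.262, limma).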

How the data were processed

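RNA was poly(A)+ mRNA from rear-leg muscle, per the labels' protocols. The deposited values are linear intensity values, MAS5 signals per the submitters' processing notes, with a mean (2% trimmed at each end) of 2503 to 2506 in every array. Probe sets were named through GEO's platform annotation, where 7018 had 1 gene symbol, 308 several and 1473 none. All 24 members matched RefSeq (GRCr8) by gene ID and symbol. Genes were taken by their probe set of highest mean signal. log2(signal + 16) of the 6027 tested probe sets was fitted with limma 3.58.1 in R 4.3.3 over all 20 arrays, with 1 coefficient per group, no covariate and 16 residual degrees of freedom. The script was tested on simulated data. P-values were adjusted by Benjamini-Hochberg. Every member was named, with values per array for tested ones, and list genes that were called, or the 2 of smallest p. Other list genes with values (Socs2, Cish, Ghr, Insr, Igfals, Eif4ebp1 and Mstn) were chosen after their values were seen. The members, the gene lists and the tests were chosen with earlier results of these data known. With 5 arrays per group, their number limits the precision. Alternatives changed the pseudocount, filter, scaling, model, covariates and arrays used, and 2 were added after the data were seen. Probe sequences were not used here.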

Additional observations from a re-analysis of the deposited data

Results flagged for a closer look

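Of the 96 groups of 5 signals formed by the 24 probe sets and 4 groups, 4 held an array whose gap to the nearest other array was over 0.71 of the range of the group (Dixon's criterion), where chance gives about 4.8. Igf2 X17012mRNA_s_at was 14.87 on the log2 scale in diabetic 5 (signal 29863), and 3725 to 5181 in the other diabetic arrays. Igf2r U59809_s_at was 10.80 in treated diabetic 3 (signal 1769.9), and 3239.9 to 3963 in the others of that group. Igfbp2 M91595exon_s_at was 8.12 in treated diabetic 5 (signal 263), and 1013 to 1172 in the others. Igfbp3 rc_AI009405_s_at was 6.20 in treated diabetic 1 (signal 57.4), and 994 to 1628 in the others. Diabetic 5 and treated diabetic 5 had the highest summed signals of the 14 liver genes, 79392 and 44233, and treated diabetic 1 the highest Gapdh 3′ to 5′ ratio, 3.94 on the log2 scale. The part of either in these 4 values was not tested.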

How the results depend on the processing

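In diabetic against normal muscle the count of called members, 1 (Igf1r L29232_at), was 0 with a pseudocount of 1, with no filter, with a 60th percentile filter, which left the probe set untested, with a trended robust spread, with both 3′ to 5′ ratios as covariates, without diabetic replicates 1 and 3, and without the 5 arrays of high liver signal. The replicate block also gave 0 (Igf1r adjusted p 0.0585, limma), with 106 of all probe sets called. Leaving out 1 array gave 0 to 1, and 0 for 13 of the 20. The count stayed 1 without the arrays of high Gapdh ratio and without treated diabetic 1, but the member was then Igfbp3 rc_AI009405_s_at. With no filter 62 of all probe sets were called in place of 110, with both ratios 32, with the Gapdh ratio 282, with array weights 515, with the 2 groups alone 71, without the arrays of high Gapdh ratio 464, without the arrays of high liver signal 31, and leaving out 1 array 24 to 247. Without diabetic 1 and 3 the count was 3. In the other 5 comparisons 0 members were called under every alternative run. Of 3535 single member values recomputed, 3293 kept their direction and side of the threshold, 22 lost the Igf1r call, 2 gained the Igfbp3 call, and 218 uncalled values changed sign. No called value changed sign. The causes were not tested.

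Same replicate numbers do not show that samples are paired. Of 25 same-numbered pairs of arrays 9 deviated together at r over 0.1, 5 correlated best with their own number, and r ran from -0.28 to 0.62, so the block is given here only. Median scaling and quantile normalization moved the median change of all probe sets under vanadyl sulfate in normal muscle from 0.18 to -0.021 and 0.034, so member values in that comparison are to be read against that shift. Signals under the 40th percentile, as for Igf1r L29232_at in all 5 normal arrays, are low for their array, and detection calls were not used here. A fold against such signals depends on the pseudocount.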
